A study of Mus musculus with 9 samples.

Results

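The genes described here are 145 antisense transcripts of the mouse, taken as the rows that the deposited gene table types as antisense and whose estimated counts summed to at least 60 over 6 libraries. They are 145 of 2590 antisense rows among 50600 genes, and 1755 of those rows had 0 counts in all 6 libraries. For 122 of the 145, a protein-coding gene lies across some of the same bases on the other strand, and the change of that coding gene was set beside the change of the antisense gene. A member with several such coding genes (23 members) was paired with the one it overlaps over the most bases, and the 122 members have 120 distinct partners. Members were thus chosen by their total count over both groups together, so the levels below are a description of genes chosen for being detectable. This total did not use the direction of a change, but a gene with few counts in one group could reach 60 only through the other. This held for 36 members with under 30 counts in a group, 30 of them in LPS and 6 in None. The counts of changed members, and the single changes of these 36, are therefore likewise given as a description. Just under the limit, Tomm6os, 1700084E18Rik, K230015D01Rik and Zfhx2os had sums between 59 and 59.3, and just inside it Gm4285, Gm10552, A430057M04Rik and Gm15265 had sums between 60 and 63.

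An antisense transcript is read from the DNA strand opposite to another gene, so the RNAs can share sequence in reverse. Some start close to the promoter of the coding gene and run away from it, some run into its end, and some lie inside it. A few are textbook regulators of genes on their own chromosome, such as Airn and Kcnq1ot1, which silence imprinted genes in cis, while many others have no known role and are removed early by the nuclear exosome.

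The cells were RAW-Blue, an engineered mouse macrophage line with a reporter for inflammatory signalling. LPS cells (3 libraries) had received lipopolysaccharide, the outer membrane component of Gram-negative bacteria that activates Tlr4, at 1 µg/ml for 24 hours. None cells (3 libraries) had no stimulus, and both groups were grown in the same medium with the selection antibiotics of the line. A further group, LPS-PjELNs, was given vesicles for 16 hours before LPS and is not analysed here, because no column of the tables could be matched to its labels. All libraries come from 1 cell line, and the labels do not say whether replicates were separate cultures, so each p-value speaks of the spread among these libraries, which may be technical. In such bulk samples, fewer cells that carry an RNA and less of it per cell cannot be told apart.

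Library totals lay between 14650825 and 17665201 counts. All 7 macrophage markers examined were detected, with summed levels of 21900 to 23500 CPM (counts scaled to library size) in LPS and 11700 to 13100 CPM in None. Lyz2 alone had 16200 to 17200 CPM in LPS and 7930 to 9040 CPM in None. Of the 7 markers, 4 rose and 1, Csf1r, fell (log2 fold change -1.33). The 3 T cell markers and the B cell marker Ms4a1 had 0 counts, while the B cell marker Cd79a had 54 counts in LPS and 13 in None. The summed markers of epithelial cells, fibroblasts and endothelium stayed at or under 0.505 CPM in every library. Of 97 tested genes on a list of LPS response genes, 93 rose and 1 fell, with a median log2 fold change of 3.48. The 145 antisense genes are a small part of these libraries, at 0.0307% to 0.0319% of counts in LPS and 0.0468% to 0.0499% in None.

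The sources used here do not say whether the library preparation kept the strand. Without strand, reads from an antisense gene and its partner cannot be told apart where their exons overlap. By the GENCODE M21 exons, 106 of the 122 pairs share exon bases and 16 share none, and the median share of an antisense gene's exon bases that also lie in exons of its partner was 18.2%. The deposited values are estimates that need not be whole where reads are divided between genes. Counts were whole (within 0.005) in all 6 libraries for 140 of the 145 members, for 102 of the 106 members that share exon bases, and for all 18 members with at least 50% of their exon bases shared. Gm11175, for example, lies wholly within exons of Jund, which encodes an AP-1 transcription factor, and had 59 counts in LPS and 61 in None, all whole. The members without whole counts were Gm20632 and Gm20633 at duplicated histone genes, A530040E14Rik, Gm20687 and Gm10552, and their values are uncertain.

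The antisense genes were low in both groups and more of them fell than rose with LPS. On the TPM scale, which also corrects for transcript length, the median member stood at 1.12 TPM in LPS and 1.80 TPM in None, and 68 members in LPS and 39 in None averaged under 1 TPM. Of the 143 members that passed the filter on low counts, 27 were called higher in LPS, which is 18.9% against 34.0% of all 11916 genes tested, and 57 were called lower, which is 39.9% against 35.1% of all genes. A call is an adjusted p under 0.05 in edgeR (quasi-likelihood test, adjusted by Benjamini and Hochberg's method over all genes tested). Calls in either direction covered 58.7% of members and 69.1% of all genes. The median log2 fold change was -0.33 for the members and -0.03 for all genes. Decreases of at least 2-fold were fitted for 44 members (30.8%, against 11.8% of all genes) and increases of that size for 14 (9.79%, against 11.1%). Of all members, 30 had under 30 counts in LPS and 6 in None, and passed the limit on summed counts only through the other group. The 2-fold contrast with all genes cannot be separated from this choice of members and is given as a description. The LPS and None libraries did not overlap for 97 members (67.8%, against 73.6% of all genes). Scaling by library totals, which moves the median of all genes by -0.26, gave 19 members higher and 70 lower. The shares of all genes called were not counted under that scaling. Among the 109 members with at least 30 counts in each group, 23 were higher and 33 lower. Both shares were under the 34.0% and 35.1% of all genes, which were not limited in this way. Changes of at least 2-fold were not counted among these 109.

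**Figure D1:**
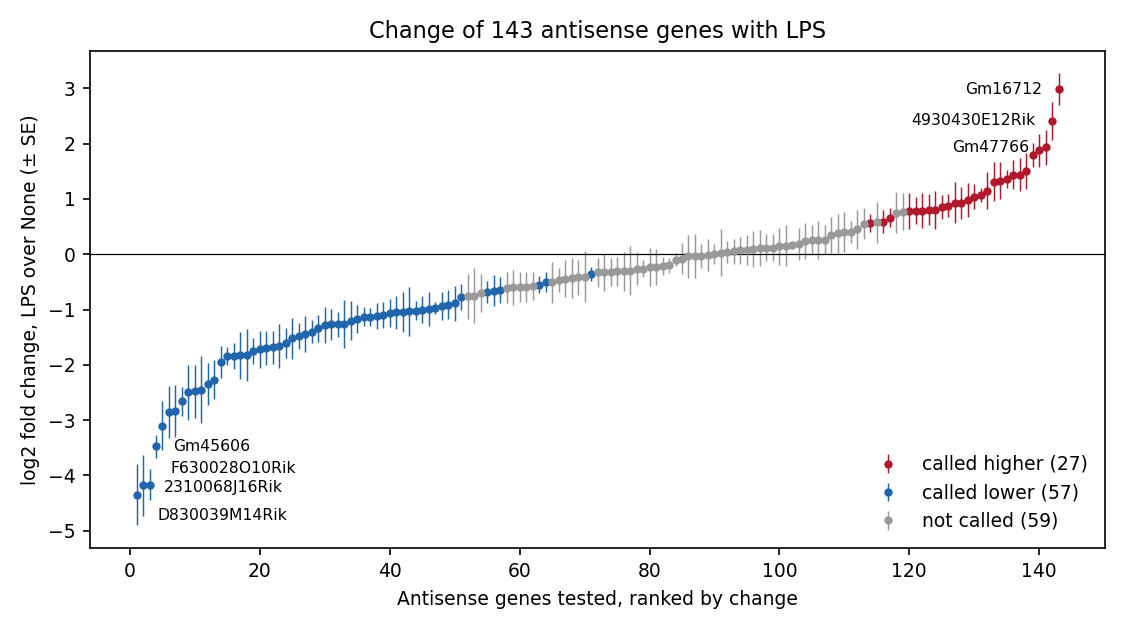
Fitted log2 fold change, LPS over None, of the 143 antisense genes tested, ranked from lowest to highest, with bars for the SE of the fit and colours for the call. The 57 called lower reach below -4, while the 27 called higher reach 2.98 for Gm16712.

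Other classes of long non-coding RNA also had more genes lower than higher in the same fit, and whether the classes differ was not tested. Of 144 lincRNA genes tested, 21.5% were called higher and 48.6% lower, and of 121 processed transcripts 20.7% were higher and 47.1% lower. Of 34 genes typed as bidirectional promoter RNAs, 11.8% were higher and 52.9% lower, while of the 160 antisense genes tested 29 were higher and 64 lower. The 10809 coding genes tested were split evenly, at 35.2% and 35.5%. The classes differ in counts, with a median of 1.27 CPM for tested antisense genes, 2.05 CPM for lincRNA genes and 32.9 CPM for coding genes, and the part that count level plays in these shares was not tested.

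The members with the highest mean CPM over the 6 libraries were Brip1os, 1110002L01Rik, Rab10os, 9530082P21Rik and Snhg16. Brip1os (chromosome 11, 86201383 to 86304443, GRCm38, plus strand) spans the whole of Ints2, which encodes a subunit of the Integrator complex that processes nuclear RNAs. It had 52.7, 55.5 and 50.5 CPM in the LPS libraries and 45.4, 48.0 and 47.4 CPM in the None libraries. Every LPS library was above every None library, but the log2 fold change of 0.17 ± 0.07 (SE) missed the threshold (edgeR adjusted p = 0.0524) and the value was -0.09 with scaling by library totals.

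The antisense gene 1110002L01Rik (chromosome 12, 3403878 to 3427011, minus strand) runs tail to tail into Kif3c, which encodes a kinesin motor. It had 17.3, 17.4 and 12.8 CPM in LPS against 31.7, 30.9 and 30.5 CPM in None, and Kif3c had 77.2, 71.2 and 84.6 CPM in LPS against 37.9, 36.9 and 35.2 CPM in None. The groups did not overlap for either gene, and the genes moved in opposite directions. The antisense gene fell (log2 fold change -0.97 ± 0.11, edgeR adjusted p = 9.32e-06) and Kif3c rose (1.08 ± 0.08, edgeR adjusted p = 1.54e-07). On the TPM scale the antisense gene stood at 33.9% of the level of Kif3c in LPS and at 146% of it in None.

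Rab10os fell to 9.52, 12 and 14.8 CPM in LPS, against 19.8, 16.2 and 17.4 CPM in None, beside Rab10, a small GTPase of vesicle transport, which rose (log2 fold changes -0.55 ± 0.15 for Rab10os and 0.46 ± 0.08 for Rab10). The gene 9530082P21Rik rose to 16.5, 15.8 and 20.8 CPM in LPS, against 8.03, 8.63 and 8.58 CPM in None (log2 fold change 1.07 ± 0.13, edgeR adjusted p = 9.55e-06). It overlaps the start of Kremen2, which encodes a receptor that dampens Wnt signalling and was too low to be tested. Snhg16, a host gene of small nucleolar RNAs, had 9.59, 9.15 and 10.8 CPM in LPS and 10.3, 11.1 and 10.3 CPM in None, with overlapping groups. Zeb2os, inside the gene of the transcription factor Zeb2, had 6.75, 7.41 and 8.22 CPM in LPS and 9.28, 10.1 and 9.25 CPM in None. Its log2 fold change of -0.36 ± 0.13 was called (edgeR adjusted p = 0.0258) but was not with DESeq2 (adjusted p = 0.083), nor without LPS replicate 1 (edgeR adjusted p = 0.0772), None replicate 2 (0.107) or None replicate 3 (0.0508). Zeb2 itself had 208, 180 and 156 CPM in LPS and 174, 159 and 157 CPM in None and was not called.

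Per length the highest mean was that of Rab26os in None and that of Hotairm1 in LPS. Sp3os, at 22.5 TPM in LPS and 16.6 TPM in None, and Snhg16, at 16.8 and 20.1 TPM, lay close to Hotairm1. Rab26os (chromosome 17, 24528248 to 24528744, plus strand), chosen after its values were seen, averaged 8.32 ± 4.48 TPM in LPS and 38.6 ± 1.35 TPM in None (SD, n = 3 each). Hotairm1, an RNA of the Hoxa cluster known from human myeloid cells, averaged 22.6 ± 2.19 TPM in LPS and 20.5 ± 4.01 TPM in None, with overlapping libraries.

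The host gene of the myeloid microRNA miR-223 fell furthest among members with more than 10 CPM in a group. F630028O10Rik (chromosome X, 96239926 to 96243636, plus strand) overlaps no coding gene and holds the Mir223 hairpin on its own strand. The microRNA is known to restrain granulocyte production and inflammatory activity in mice. Its mature arms, from RefSeq on GRCm38.p6, are shown because they are the known product of this transcript, with the seed (bases 2 to 8) in capitals:
mmu-miR-223-5p: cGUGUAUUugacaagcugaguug
mmu-miR-223-3p: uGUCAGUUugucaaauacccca
The arms have different seeds. The host transcript had 1.28, 1.02 and 0.361 CPM in the LPS libraries and 19.8, 13.2 and 15.4 CPM in the None libraries. All LPS libraries were far below all None libraries, with a log2 fold change of -4.17 ± 0.28, or 18-fold lower in LPS (edgeR adjusted p = 5.2e-08). These are counts on the long transcript, and the mature microRNAs were not measured here.

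Gm45606 had similar counts and fell almost as far. It lies head to head with Slc43a2 (chromosome 11, 75530277 to 75533071, minus strand), which encodes a carrier of large neutral amino acids. It had 2.06, 1.60 and 1.08 CPM in LPS and 20.5, 17.4 and 14.8 CPM in None, which was 11.1-fold lower in LPS (log2 fold change -3.47 ± 0.21, edgeR adjusted p = 1.85e-08).

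Larger ratios were seen at very low counts. D830039M14Rik, at the start of Lrrc20 (chromosome 10, 61473576 to 61476937, minus strand), had 3 counts over the LPS libraries and 92 over the None libraries, a ratio of None to LPS per library total of 26.8 with an exact 95% counting interval of 8.89 to 132. 2310068J16Rik lies inside Larp4, which encodes a protein that binds the poly(A) tails of mRNAs, and had 3 counts in LPS and 82 in None, a ratio of 23.9 with an interval of 7.89 to 118. These intervals cover counting error only, and both members passed the limit on summed counts only through None. The fitted log2 fold changes were -4.35 for D830039M14Rik, or -5.22 without LPS replicate 1, and -4.18 for 2310068J16Rik, or -5.06 without LPS replicate 2. Larp4, the coding partner, had 126, 118 and 103 CPM in LPS and 113, 111 and 113 CPM in None, with overlapping libraries.

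Gm48529 lies inside Tagln, a smooth muscle actin-binding protein gene with almost no counts here. It had 0.142, 0.508 and 0.216 CPM in LPS against 2.82, 2.22 and 1.29 CPM in None, a log2 fold change of -2.84 ± 0.47, or -3.50 without LPS replicate 2.

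At the other end, the 2 members that rose at least 4-fold were Gm16712 and 4930430E12Rik. Gm16712 (chromosome 17, 55954771 to 55959381, minus strand) had 3.41, 2.90 and 4.18 CPM in LPS and 0.326, 0.465 and 0.517 CPM in None, and was 7.88-fold higher in LPS (log2 fold change 2.98 ± 0.29, edgeR adjusted p = 1.43e-06). 4930430E12Rik (chromosome 4, 6352105 to 6357530, minus strand) overlaps no coding gene and had 1.85, 1.82 and 2.02 CPM in LPS against 0.217, 0.310 and 0.517 CPM in None, which was 5.32-fold higher (edgeR adjusted p = 3.55e-05). The libraries of the groups did not overlap for either gene. Gm16712 and 4930430E12Rik had 25 and 20 counts in None, and so passed the limit on summed counts only through LPS. Their rises are given as a description.

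Other increases were smaller. 1110046J04Rik, inside the serine protease inhibitor gene Serpinb6a, and Gm47766, at the start of Actn1, had log2 fold changes of 1.88 ± 0.30 and 1.93 ± 0.31. Gm10658, which runs tail to tail into the tyrosine phosphatase gene Ptpn9, had 1.92, 1.45 and 1.73 CPM in LPS and 0.868, 0.362 and 0.569 CPM in None (1.5 ± 0.33, edgeR adjusted p = 0.00139). Ptpn9 was not called, with 61.8, 54.4 and 54.8 CPM in LPS and 52.3, 49.8 and 51.9 CPM in None.

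**Figure D2:**
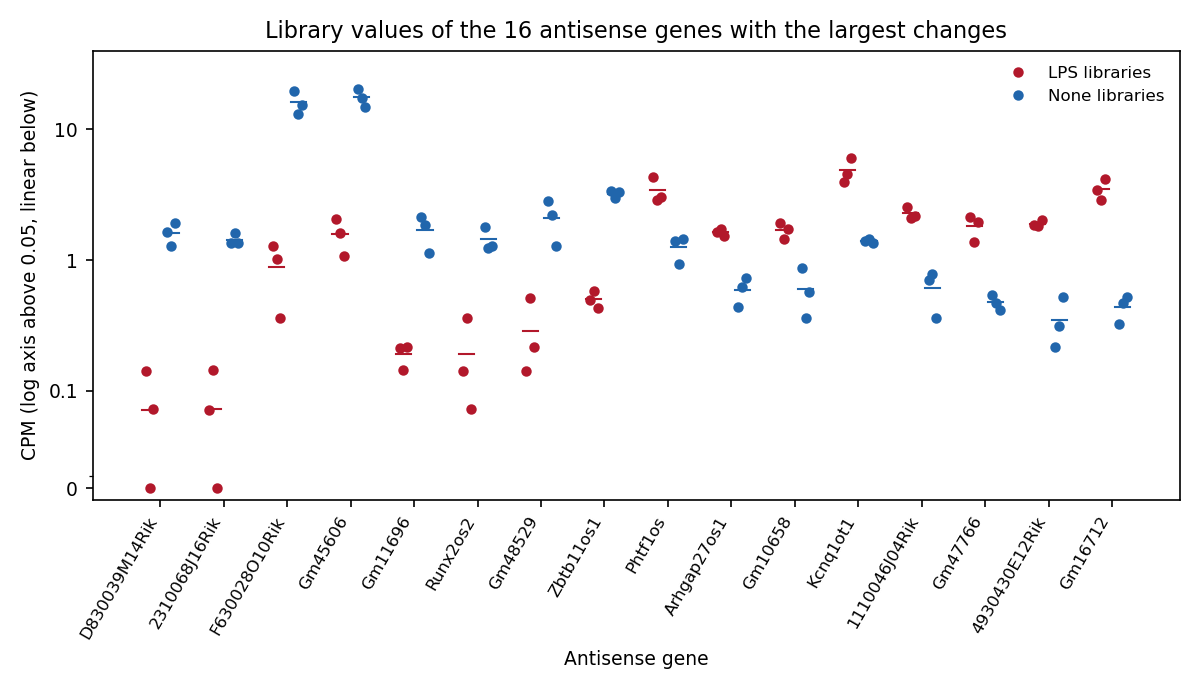
CPM in each LPS and None library of the 16 members with the largest called changes whose groups do not overlap, 8 lower and 8 higher in LPS, with a short line at each mean. The axis is logarithmic above 0.05 CPM and linear below, and the members that fell furthest reach 0 CPM in an LPS library, while F630028O10Rik and Gm45606 stand above 10 CPM in every None library.

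The changes of the antisense genes were then set beside those of their coding partners. The partner was usually far more abundant. The median antisense gene stood at 5.57% of the TPM of its partner in LPS and 8.52% in None. The antisense gene exceeded the partner in 15 pairs in LPS and 24 in None. In 18 pairs the partner was too low to be tested, and in 5 of these it had 0 counts. Both genes were tested in 102 pairs, and both were called in 46. In 25 pairs the genes moved in the same direction, 11 both higher and 14 both lower, and in 21 they moved in opposite directions, 18 with the antisense gene lower and the coding gene higher and 3 with the reverse. In 13 pairs the antisense gene alone was called, in 27 the coding gene alone, and in 16 neither. The same-direction share of 24.5% stood against 24.1% among 709 pairs of coding genes that overlap on opposite strands in these tables, and the opposite-direction share of 20.6% against 21.7%. Across the 102 pairs the Pearson correlation of the fitted changes was 0.24 and the Spearman correlation 0.18, given as a description of pairs that share all 6 libraries. The same values over the 709 coding pairs were 0.13 and 0.04. The split depends on scaling, since library totals gave 33 pairs in the same direction and 13 in opposite directions. The coding pairs were not counted under that scaling. With the main scaling, 80 pairs had an antisense gene with at least 30 counts in each group. Of these 80, 9 were both higher and 8 both lower. The antisense gene was lower and the coding gene higher in 11, and the reverse held in 2.

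**Figure D3:**
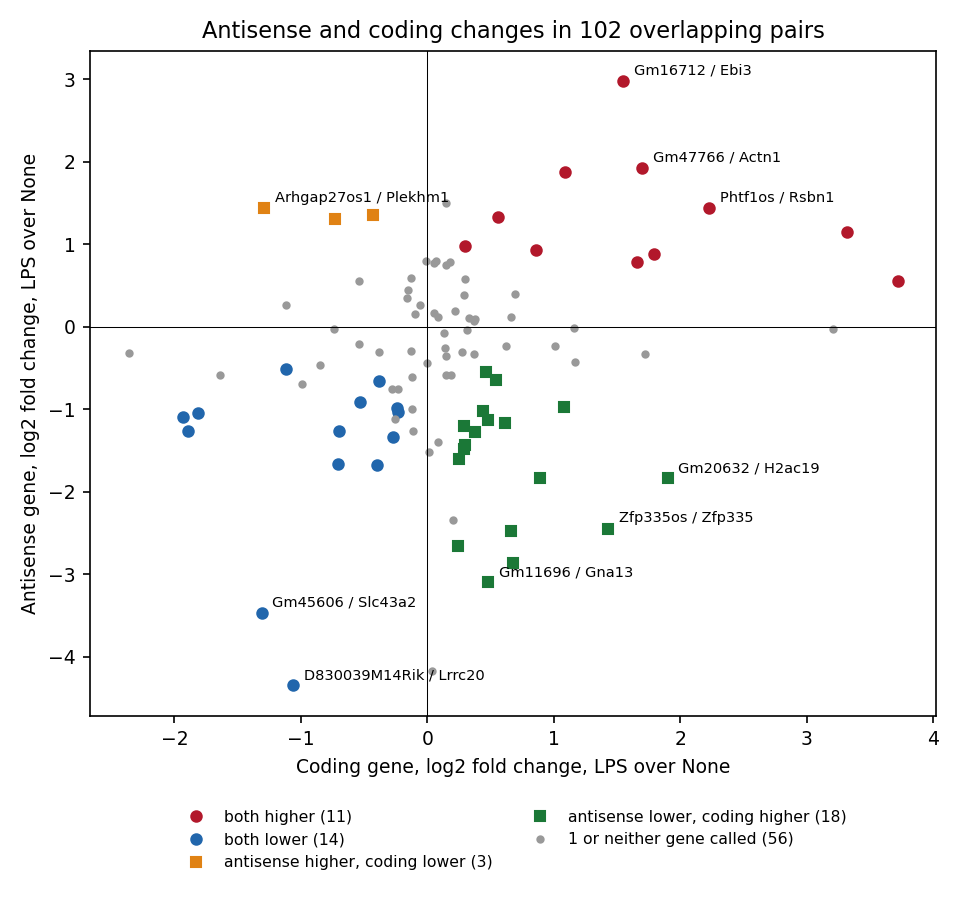
Fitted log2 fold change, LPS over None, of the coding gene (horizontal) and of the antisense gene (vertical) in 102 pairs, coloured by the calls of both genes. The 25 pairs called in the same direction lie in the upper right and lower left, and 18 of the 21 pairs called in opposite directions lie in the lower right.

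The ratio of antisense to coding counts within a library does not depend on how libraries are scaled. Its log2 value (with 0.5 added to each count) had LPS libraries all on one side of the None libraries in 71 of 102 pairs, or 69.6%, against 71.7% of the 709 coding pairs. It was lower in LPS in 49 of the 71 and higher in 22. With 3 libraries against 3, an exact two-sided permutation test cannot give a p under 0.1, and this is its value for a pair without overlap. The difference of the fitted changes, antisense minus coding, had a median of -0.50 and was below 0 in 65 pairs. Of all members, 30 had under 30 counts in LPS and passed the limit on summed counts only through None. In the 80 pairs whose antisense gene had at least 30 counts in each group, the median was -0.34, with 48 below 0 and 32 above. The part that the choice of members plays in the lower ratios was not tested, so they are given as a description. The SE given below with such a difference combines the SEs of both genes as if independent, though the genes share all libraries.

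Among pairs in which both genes rose, the antisense gene rose most in that of Gm16712 with Ebi3, which encodes a subunit shared by the cytokines interleukin-27 and interleukin-35. Ebi3 had 89.5, 85.3 and 84.8 CPM in LPS and 32.6, 28.0 and 28.1 CPM in None (log2 fold change 1.55 ± 0.08, edgeR adjusted p = 5.7e-09). The antisense gene rose further than Ebi3, by a difference of 1.43 ± 0.30, and the log2 ratio was -4.70, -4.86 and -4.33 in LPS and -6.53, -5.84 and -5.69 in None.

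Gm47766 and Actn1, the gene of the actin cross-linker alpha-actinin, overlap at their starts, and both rose. Gm47766 had 2.13, 1.38 and 1.95 CPM in LPS and 0.543, 0.465 and 0.414 CPM in None. Actn1 had 240, 246 and 247 CPM in LPS and 76.2, 75.4 and 73.4 CPM in None. The difference of their changes was 0.22 ± 0.32, and their ratio overlapped between groups.

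Phtf1os rose with Rsbn1 (log2 fold changes 1.44 ± 0.26 and 2.23 ± 0.10), and 51.9% of its exon bases lie in exons of that gene. A930015D03Rik, which spans the class I histocompatibility gene H2-T24, had 5.12, 5.30 and 6.06 CPM in LPS against 3.58, 3.52 and 4.03 CPM in None. H2-T24 had 48.1, 58.4 and 46.4 CPM in LPS against 3.47, 4.19 and 3.93 CPM in None. Their log2 fold changes were 0.56 ± 0.16 and 3.72 ± 0.13. The call of A530040E14Rik (1.15 ± 0.33), paired with A530032D15Rik (3.32 ± 0.23), was lost on log2 TPM with limma (adjusted p = 0.0907 with a pseudocount of 0.1), and neither gene had whole counts in any library.

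Among pairs in which both genes fell, Gm45606 with Slc43a2 had the most counts. Slc43a2 had 155, 131 and 130 CPM in LPS and 376, 334 and 320 CPM in None (log2 fold change -1.31 ± 0.09, edgeR adjusted p = 8.75e-08). The antisense gene fell further, by a difference of -2.16 ± 0.23, and stood at 1.57% of the TPM of Slc43a2 in LPS and 10.8% in None. Lrrc20, whose product has leucine-rich repeats, fell to 13.2, 14.7 and 15.5 CPM in LPS, against 32.0, 28.7 and 30.2 CPM in None, and its partner D830039M14Rik fell with it as described.

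A230005M16Rik spans the whole of Bmyc, a Myc family gene, and their log2 fold changes were -1.26 ± 0.43 and -1.89 ± 0.12. The call of A230005M16Rik was lost with DESeq2 (adjusted p = 0.0688), without LPS replicate 1 (edgeR adjusted p = 0.0759) and without None replicate 3 (0.0646). Gm4673 overlaps the end of the lipoprotein receptor gene Lsr and stood above it, at 692% of its TPM in LPS and 336% in None, with log2 fold changes of -1.10 ± 0.24 for Gm4673 and -1.93 ± 0.50 for Lsr.

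Among pairs in opposite directions, Zfp335os and Zfp335 moved apart most. Zfp335 encodes a zinc finger protein that is part of a histone methyltransferase complex, and the antisense gene starts inside it (chromosome 2, 164911354 to 164919953, plus strand). Zfp335os had 0.071, 0.508 and 0 CPM in LPS and 1.14, 1.14 and 0.982 CPM in None. Zfp335 had 75.9, 73.8 and 93.0 CPM in LPS and 28.3, 32.6 and 29.0 CPM in None. The log2 fold changes were -2.45 ± 0.61 and 1.43 ± 0.10 (edgeR adjusted p = 0.00292 and 8.08e-08), and the first was -4.66 without LPS replicate 2, which held most of the LPS counts. Zfp335os had 8 counts in LPS, as had Gm11696, Runx2os2 and Gm42984 below, and Zbtb11os1 had 21. These members passed the limit on summed counts only through None, so their falls are given as a description.

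Gm11696 and Gna13, the gene of a G protein alpha subunit, start 379 bases apart. Gm11696 had 0.213, 0.145 and 0.216 CPM in LPS and 2.12, 1.86 and 1.14 CPM in None, and Gna13 had 325, 250 and 286 CPM in LPS and 216, 202 and 201 CPM in None. The groups did not overlap for either gene (log2 fold changes -3.10 ± 0.44 and 0.48 ± 0.09).

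6330403L08Rik and the platelet-derived growth factor gene Pdgfa had nearly equal counts without LPS. 6330403L08Rik fell to 4.12, 2.54 and 3.10 CPM in LPS, against 11.6, 12.3 and 11.2 CPM in None, and Pdgfa rose to 23.2, 20.8 and 23.4 CPM, against 11.9, 12.3 and 12.4 CPM. Their log2 ratio was -2.48, -3.01 and -2.90 in LPS and -0.04, 0.01 and -0.15 in None. The difference of the fitted changes was -2.72 ± 0.19.

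Runx2os2 lies inside Runx2, which encodes the transcription factor of bone-forming cells, and shares no exon base with it. It had 0.142, 0.363 and 0.0721 CPM in LPS and 1.79, 1.24 and 1.29 CPM in None, and Runx2 had 20, 19.2 and 24.5 CPM in LPS and 13.5, 14 and 12.4 CPM in None. The log2 fold change of Runx2os2 was -2.86 ± 0.47, or -3.65 without LPS replicate 2. That of Runx2 was 0.68 ± 0.11, and its call was lost on log2 TPM with limma (adjusted p = 0.135 with a pseudocount of 0.1).

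Gm42984 fell at the start of Tapt1, which rose (-2.48 ± 0.48, or -3.27 without LPS replicate 2, and 0.66 ± 0.09). Zbtb11os1 fell at the start of Zbtb11, a zinc finger gene (-2.66 ± 0.26, edgeR adjusted p = 1.77e-06). Zbtb11 itself had 31.0, 31.3 and 25.9 CPM in LPS and 25.1, 23.9 and 25.7 CPM in None, and its small rise (0.24 ± 0.10, edgeR adjusted p = 0.0431) was -0.02 with library totals. The rise of Zbtb11 also missed the threshold without LPS replicate 1 or 2 (edgeR adjusted p = 0.117 for each) and without None replicate 1, 2 or 3 (0.0793, 0.154 and 0.0706). Gt(ROSA)26Sor, the non-coding transcript of the Rosa26 locus that is widely used to place transgenes, was chosen after its values were seen. It fell to 3.20, 3.56 and 3.54 CPM in LPS, against 7.98, 6.10 and 6.77 CPM in None, beside a rise of Thumpd3 (-1.02 ± 0.17 and 0.44 ± 0.08). Gm20632 and the histone gene H2ac19 had log2 fold changes of -1.84 ± 0.23 and 1.90 ± 0.18, but neither had whole counts, and near-identical histone genes lie in the same cluster.

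The 3 pairs with the antisense gene higher and the coding gene lower were Arhgap27os1 with Plekhm1, Zfp652os with Zfp652 and 5830432E09Rik with Ptpre. Arhgap27os1 had 1.63, 1.74 and 1.52 CPM in LPS and 0.434, 0.620 and 0.724 CPM in None. Plekhm1, an adaptor for the fusion of vesicles with lysosomes, had 69.8, 64.8 and 84.5 CPM in LPS and 205, 172 and 158 CPM in None. The log2 ratio was higher in every LPS library, at -5.39, -5.19 and -5.77 against -8.80, -8.05 and -7.72 in None. 5830432E09Rik lies inside the tyrosine phosphatase gene Ptpre and had a log2 fold change of 1.36 ± 0.17, beside -0.43 ± 0.11 for Ptpre.

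The pairs differ in how the genes are arranged. In 41 of the 122 the genes overlap at their starts (head to head), in 40 they overlap at their ends (tail to tail), in 28 the antisense gene lies inside the coding gene and in 13 around it. The median change of the log2 ratio was -0.88 over the 39 head-to-head pairs tested, and -0.23, -0.38 and -0.41 over the 29 tail-to-tail pairs, the 22 inside and the 12 around. Among head-to-head pairs the LPS and None libraries did not overlap in 31, with the ratio lower in LPS in 25 of them, beside the 71.7% without overlap over the coding pairs. Of 41 head-to-head members, 10 were called higher and 21 lower, where 34.0% and 35.1% of all genes were. Of the 39 pairs, 14 were called in the same direction and 10 in opposite directions, where 24.1% and 21.7% of the coding pairs were. Whether the arrangements differ was not tested. The head-to-head members D830039M14Rik, Gm11696, Zfp335os and Gm42984, for example, had 3, 8, 8 and 8 counts in LPS. They passed the limit on summed counts only through None, so their low ratios in LPS cannot be separated from the choice of members. The arrangements were not compared among members with at least 30 counts in each group, so their medians are given as a description.

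**Figure D4:**
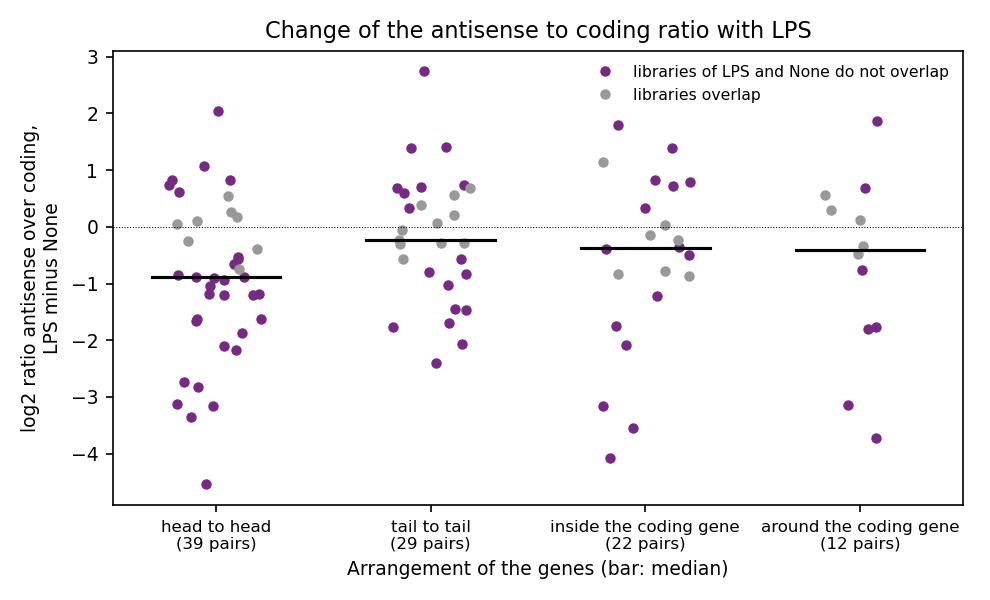
Change of the log2 ratio of antisense to coding counts, LPS minus None, in 102 pairs by the arrangement of the genes, with a bar at each median. Head-to-head pairs have the lowest median, at -0.88, and each arrangement has pairs above and below 0. Pairs whose antisense gene passed the limit on summed counts only through None are included.

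Promoters of 3 head-to-head pairs are shown as examples of a pair that fell together, a pair that moved apart and a pair that rose together. They run from 250 bases before to 50 after the RefSeq start of the gene named, on GRCm38.p6. Capitals mark the bases inside both genes by the deposited gene spans, whose starts can differ from the RefSeq starts. The deposited span of 0610040B10Rik starts at base 143329247, and the capitals of its window lie before its RefSeq start. By the deposited spans, the starts of 0610040B10Rik and the palmitoyltransferase gene Zdhhc4 lie 9 bases apart. Those of Zfp335os and Zfp335 lie 403 apart and those of Gm47766 and Actn1 928. The windows are chr5:143329058-143329357 (plus strand, 0610040B10Rik), chr2:164911701-164912000 (minus strand, Zfp335) and chr12:80260314-80260613 (minus strand, Actn1):
0610040B10Rik: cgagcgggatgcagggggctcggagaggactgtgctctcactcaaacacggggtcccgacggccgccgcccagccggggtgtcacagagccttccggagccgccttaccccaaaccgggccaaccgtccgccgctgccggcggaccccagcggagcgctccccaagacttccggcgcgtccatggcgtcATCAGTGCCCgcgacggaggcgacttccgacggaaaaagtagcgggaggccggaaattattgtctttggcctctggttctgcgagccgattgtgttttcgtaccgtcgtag
Zfp335: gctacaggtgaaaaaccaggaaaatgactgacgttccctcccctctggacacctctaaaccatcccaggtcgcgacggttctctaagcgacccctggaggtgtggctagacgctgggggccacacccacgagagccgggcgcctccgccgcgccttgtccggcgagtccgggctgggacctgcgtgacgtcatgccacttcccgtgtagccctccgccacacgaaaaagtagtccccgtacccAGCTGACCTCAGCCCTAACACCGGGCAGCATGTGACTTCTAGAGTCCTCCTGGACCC
Actn1: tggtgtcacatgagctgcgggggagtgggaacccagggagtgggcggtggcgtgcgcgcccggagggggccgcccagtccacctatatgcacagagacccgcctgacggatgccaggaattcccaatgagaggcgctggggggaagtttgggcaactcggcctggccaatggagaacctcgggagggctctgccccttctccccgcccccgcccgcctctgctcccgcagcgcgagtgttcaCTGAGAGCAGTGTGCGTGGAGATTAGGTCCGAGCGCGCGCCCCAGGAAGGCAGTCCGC
The windows hold 36, 22 and 24 CpG dinucleotides, against a median of 7 over 32851 RefSeq mouse promoters of the same length. On both strands, no window holds the TATA box (searched as TATAAA), the motif of AP-1 (searched as TGANTCA), the interferon response motif (searched as GAAANNGAAA) or the NF-kappaB motif. Of all those promoters, 13.6% hold the TATA box, 7.81% the motif of AP-1, 3.44% the interferon response motif and 8.46% the NF-kappaB motif. Motifs were searched separately, so matches may overlap, and this says only that these letters are not in these windows. 0610040B10Rik had 0.355, 0.218 and 0.577 CPM in LPS and 1.09, 1.09 and 1.5 CPM in None, and Zdhhc4 had 10.2, 11.5 and 11.0 CPM in LPS and 19.8, 17.8 and 16.2 CPM in None. The genes fell together (log2 fold changes -1.66 ± 0.39 and -0.71 ± 0.11). The other pairs that start within 100 bases of each other did not share this pattern, since Zfp652os, 81 bases from Zfp652, rose while Zfp652, whose counts were not whole, fell (1.31 ± 0.35 and -0.73 ± 0.09), and 2810402E24Rik, 6330562C20Rik and Gm42984, at 54, 33 and 35 bases from Usp54, Cers2 and Tapt1, fell while these genes rose.

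A single partner is on the list of LPS response genes. Bcl3 encodes a nuclear member of the I-kappaB family and contains Gm16174 on its other strand. Bcl3 had 59.0, 53.8 and 60.3 CPM in LPS and 7.54, 4.45 and 6.77 CPM in None (log2 fold change 3.21 ± 0.15, edgeR adjusted p = 1.71e-09). Gm16174 had 0.568, 0.944 and 1.01 CPM in LPS and 0.434, 0.931 and 1.19 CPM in None, so its libraries overlapped, and its log2 fold change of -0.03 ± 0.40 changed sign when LPS replicate 1 (0.19), None replicate 2 (0.04) or None replicate 3 (0.29) was left out. On the TPM scale Gm16174 stood at 15.2% of Bcl3 in LPS and 142% in None.

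Of the imprinted antisense RNAs, Kcnq1ot1 had 3.98, 4.57 and 6.06 CPM in LPS and 1.41, 1.45 and 1.34 CPM in None (log2 fold change 1.79 ± 0.22, edgeR adjusted p = 1.28e-05). The potassium channel gene Kcnq1 around it had 0 counts in every library. Since Kcnq1ot1 is very long, its mean was only 0.06 TPM in LPS and 0.02 TPM in None, and the call was lost on log2 TPM with limma (adjusted p = 0.283 with a pseudocount of 0.1 and 0.58 with 1). Airn had 1.85, 1.38 and 1.80 CPM in LPS and 1.74, 1.34 and 1.55 CPM in None, with overlapping libraries, while its imprinted target Igf2r, a receptor that sorts lysosomal enzymes, rose to 208, 209 and 214 CPM in LPS, against 125, 139 and 135 CPM in None (0.66 ± 0.07, edgeR adjusted p = 3.43e-06).

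For 23 members no coding gene lies across the same bases on either strand. Of these, 16 have a coding gene within 1000 bases, and for 22 the nearest coding gene is on the other strand. Of the 23, 3 were called higher (4930430E12Rik, Gm14029 and AI847159) and 8 lower, where 34.0% and 35.1% of all genes were. The nearest coding gene was called as well in 8 cases, in the same direction in 7 and in the opposite direction in 1, Gm4285 beside Tpt1. In 2 of the 7 the neighbour is the same gene, Slc20a1, and no such count was made for other neighbouring genes. Gm33858 lies 713 bases from the fractalkine receptor gene Cx3cr1 and fell with it, to 0.710, 0.653 and 0.361 CPM in LPS, against 2.22, 2.17 and 2.33 CPM in None, with log2 fold changes of -1.95 ± 0.29 for Gm33858 and -1.58 for Cx3cr1. Gm14029 and AI847159 lie 14817 and 18132 bases from the phosphate transporter gene Slc20a1, which had a log2 fold change of 1.98, and rose by 1.04 ± 0.23 and 0.93 ± 0.37.

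Genes that handle antisense and double-stranded RNA were read from short lists. Of 22 tested genes of the nuclear exosome and its cofactors, 6 rose and 9 fell, with a median log2 fold change of -0.13, where 34.0% of all genes rose and 35.1% fell with a median of -0.03. The cap-binding partners Srrt and Ncbp2, which link capped RNAs to their processing or decay, fell by 1.16 and 1.11 on the log2 scale. Ncbp1, on the same list, rose by 0.40, and the core subunit gene Exosc4 and the nuclease gene Dis3 rose by 0.59 and 0.54. Exosc6 had 1, 42 and 16 counts in LPS and 258, 261 and 267 in None, but these were whole in only 1 library. Of 26 genes that bind or sense double-stranded RNA, 13 rose and 7 fell, with a median of 0.28, to be read against the same shares of all genes. The cytoplasmic sensors Ifih1 and Ddx58 rose by 3.52 and 2.53 and the editing enzyme Adar by 0.90, while the helicase Dhx9, which unwinds such RNA in the nucleus, fell by 1.71. Of 17 tested genes on a list of known long non-coding RNAs, 6 rose and 6 fell, near the 34.0% and 35.1% of all genes. The largest rise on this list was that of Mir155hg, the host of miR-155, with a log2 fold change of 7.23 ± 0.34. It had 21.3, 14.6 and 14.8 CPM in LPS and 0.0543, 0.207 and 0.0517 CPM in None.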

How the data were processed

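Per the file headers, the values in the deposited tables are RSEM's expected counts and TPM for each gene. Per the submitters' processing notes the tools were STAR 2.7.10a and RSEM 1.3.1 on GRCm38. Per the labels' protocols, total RNA was sequenced as paired 100-base reads filtered with SOAPnuke. The deposited TPM values are the authors' length-scaled values. Strand and RNA selection are not given in the sources used here. Of the library columns, 12 match no label and were not used.

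Expected counts were rounded to whole numbers, filtered by filterByExpr (count minimum 10, total 15), scaled by TMM and fitted with edgeR 4.0.16 in R 4.3.3 (quasi-likelihood test, two-sided, Benjamini-Hochberg over 11916 genes, threshold 0.05). The steps were tested on simulated data. CPM values use TMM-scaled library sizes, and folds come from the fitted log2 values. Library totals of 14650825 to 17665201 leave members with 60 to 4889 counts over 6 libraries, with a median of 137. Gene spans are those of the table, exons those of GENCODE M21, where all 145 members were found, and sequences those of RefSeq GRCm38.p6, whose promoters cover 65 members and 102 of 120 partners.

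Members and lists were chosen with earlier results of these data known. Named members were the 8 largest changes each way without overlap, the 8 most abundant, the leading pairs with both genes called, members in the list of known RNAs or with a partner among LPS response genes, and those at the limit of 60. Others were chosen after their values were seen. Alternatives were DESeq2 1.42.0, RLE size factors, library totals, other filters, limma 3.58.1 on log2 TPM plus 0.1 or 1, a replicate block, other limits and partners, and leaving out each library.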

Additional observations from a re-analysis of the deposited data

How the results depend on the processing

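Of the 84 members called, 58 were called in the same direction in all 14 other fits (14 higher and 44 lower), none changed sign in any of them, and 69 were called with DESeq2. Leaving out 1 library at a time gave 22 to 26 members higher, 52 to 56 lower, 19 to 23 pairs in the same direction, 18 to 22 in opposite directions, and 74 to 78 pairs whose ratio did not overlap, the last being 2 libraries against 3. A sum of at least 120 left 91 members, with 14 higher and 42 lower, 15 pairs in the same direction and 14 in opposite directions, and 46 without overlap of the ratio. Pairs in opposite directions numbered 13 with library totals, 12 with log2 TPM plus 0.1 and 13 with log2 TPM plus 1, scalings that move the median of all genes by -0.26, -0.22 and -0.20. On both TPM scales 31 pairs moved in the same direction, and the members split into 19 higher and 69 lower or 21 and 70. Shares of all genes and of coding pairs were not counted under these scalings. After the data were seen, members were also limited to at least 30 counts in each group. Of these 109 members, 23 were higher and 33 lower. Of their 80 pairs, 17 moved in the same direction and 13 in opposite directions. Pairs were also limited, after the data were seen, to those that share no exon base, where 3 of 13 moved in the same direction and 1 in opposite directions. The Pearson correlation over pairs ranged from 0.20 to 0.35.

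Of 780 values of single named genes under an alternative, 735 kept direction and call, 6 gained a call, 22 lost it and 17 changed sign, these last 17 all for genes whose fitted change lay within 0.24 of 0. With library totals the changes were -0.10 for Zeb2, -0.11 for Ptpn9, -0.14 for Airn, -0.09 for Brip1os, -0.20 for Ints2, -0.22 for Larp4 and -0.02 for Zbtb11. With both TPM scales they were -0.08 for Ptpn9 and -0.05 for Brip1os, and for Larp4 -0.19 and -0.18, and Larp4 ran from -0.03 to 0.12 with 1 library left out. Gm16174 ran from -0.34 to 0.29 with 1 library left out. These causes were not tested.

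Replicate numbers did not pair the libraries, with correlations of same-numbered deviations of -0.0198 to 0.0825. A replicate block gave 25 members higher, 55 lower, 22 pairs in the same direction and 20 in opposite directions. The median member had 137 counts over 6 libraries, so small changes of the rarest members were not detectable at this depth.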
